A study of Mus musculus with 12 samples.

Results

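The genes described here are those that duplicate the genome: the proteins that license replication origins, unwind and copy the DNA at the fork, restore chromatin behind it and supply the nucleotides. The list held 51 genes, and a member was measured where the array had a probe set carrying that gene symbol alone. This gave 50 members out of 22180 genes measured. Rfc4, a subunit of the clamp loader, was represented only by a probe set shared with another symbol and was not used. For the 6 members with more than 1 probe set, the brightest on average was taken.

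The RNA came from GL261 tumours. GL261, a mouse glioblastoma line, forms tumours in C57BL/6 mice with an intact immune system. Male mice, 8 weeks old, received the cells in the brain, and total RNA was prepared from the tumour mass on day 16. The 12 arrays fall into 4 groups of 3. Control carried the tumour without either agent, as far as the group label says. TMZ received temozolomide, an alkylating agent that damages DNA, at 30 mg/kg into the peritoneum. Anti-PD-1 received an antibody against the T cell checkpoint receptor PD-1 at 10 mg/kg into a vein, with 2 injections per week. Combination received both. All 4 groups shared the implanted line, the strain, the sex, the age and the day of collection. The labels leave unstated when the agents were given, what Control mice received and whether each array came from its own mouse, so the spread between arrays may be partly technical.

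Eukaryotic cells prepare for DNA synthesis in G1, when the origin recognition complex, CDC6 and CDT1 load the ring-shaped MCM helicase onto origins, a step called licensing. At the start of S phase the DBF4-CDC7 kinase and other factors bring CDC45 and the GINS complex to the ring and switch the helicase on. Polymerase alpha with primase then starts each strand, polymerases epsilon and delta extend it, and the sliding clamp PCNA holds them in place. Many of these genes are transcribed around the G1 to S transition under E2F transcription factors, so in a tumour their mRNA is commonly read as a sign of cycling cells.

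Most replication genes had lower signals in each treated group than in Control. In the mean of the 9 treated arrays against the 3 Control arrays, 48 of the 50 members were lower, where 48.5% of all genes were. The median log2 difference of the 50 members was -0.25 beside 0.00 over all genes. Of the 50, 13 passed the test in that comparison, all lower, in a fit where 0.888% of all genes were called. These 13 were Cdc6, Mcm3, Mcm4, Mcm5, Mcm6 and Mcm7 of licensing, Mcm10 and Dbf4 of helicase activation, Pola1 and Prim1 of the primase complex, the ubiquitin ligase adaptor Dtl, the methylation cofactor Uhrf1 and the ribonucleotide reductase subunit Rrm1. A gene was called where its adjusted p was under 0.05. The test was limma's moderated test, with p values adjusted by Benjamini-Hochberg over all 22180 genes. All values are log2 RMA signals, on which a difference of -1 is a 2-fold lower signal, and errors of differences are standard errors (SE). Arrays have no read depth, and their number limits the precision. A log2 signal of 5 was exceeded in at least 3 arrays by 39 of the 50 members (63.8% of all genes); the called members Cdc6, Dbf4 and Dtl were dimmer than that.

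The Control arrays themselves were uneven for these genes. The mean over the 50 members of each array's deviation from the gene means was 0.29 in Control replicate 1, 0.28 in replicate 2 and 0.06 in replicate 3. In the treated arrays it lay between -0.11 and -0.03. Control replicate 3 therefore stood between the other Control arrays and the treated ones. It was the lowest Control array in 40 of the 50 members, against 34.2% of all genes. Even so, it lay above every treated array in 19 members (9.03% of all genes), and all 3 Control arrays lay above all 9 treated arrays in 17 members, against 1.87% of all genes. With Control replicate 3 left out, 23 members passed in the comparison of all treated arrays, where 3.78% of all genes did. With Control replicate 1 or 2 left out, 0 of the 50 passed, and 1 and 5 of all genes did. At an unadjusted p under 0.05 there were then 26 members each time, against 10.7% and 9.46% of all genes. Leaving out 1 treated array left between 3 and 13 members called, and between 58 and 240 of all genes. Over the 12 fits that each left out 1 array, Cdc6, Mcm10 and Dtl were called in 10, while Mcm4, Mcm7 and Pola1 were called in 2. Bulk RNA does not tell fewer replicating cells apart from less RNA per cell.

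**Figure D1:**
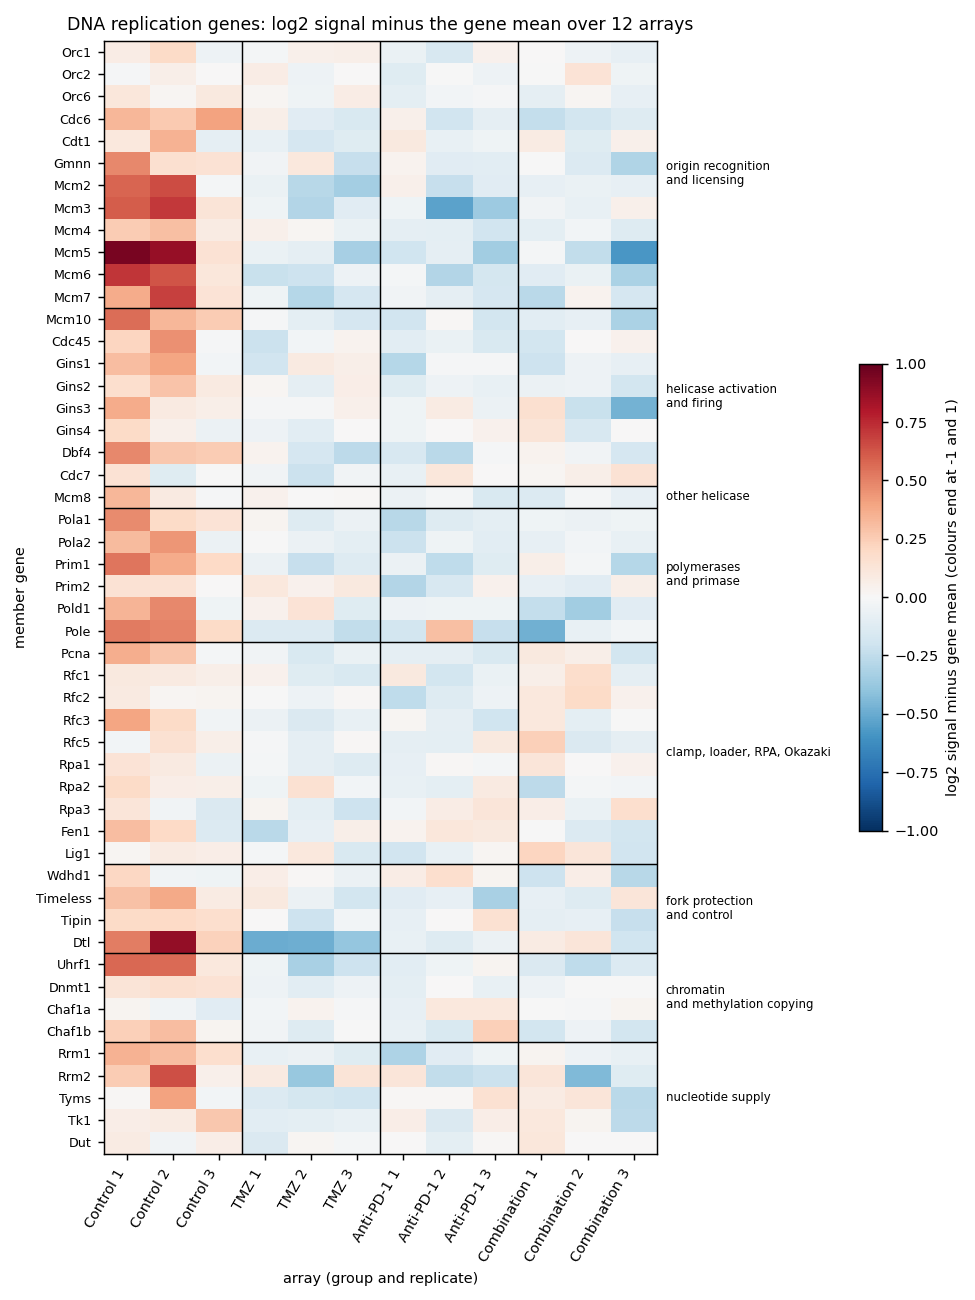
Log2 signal of the 50 members in each of the 12 arrays, shown as the deviation from the gene's mean over all arrays; rows are genes ordered by role, columns are arrays, red is above and blue below the gene mean. Control replicates 1 and 2 are red over most rows, Control replicate 3 is paler, and the 9 treated arrays are mostly pale blue.

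Promoters were inspected because the members moved together. RefSeq promoters of mouse build GRCm38.p6, each 250 bases before to 50 bases after a start site, were given for 42 of the 51 listed genes. Both strands were searched for the E2F letters TTTCCCGC, TTTCGCGC, TTTGCCGC and TTTGGCGC, whose matches can overlap each other. Of the 51 windows of member genes, 31.4% held at least 1 of them, against 2.26% of the 32851 windows of all genes. The CCAAT box (CCAAT) was in 58.8% of member windows against 37.4% of all. For the GC box (GGGCGG) the shares were 68.6% and 35.7%. The cell cycle homology region (CHR, searched as TTTGAA or TTCGAA), an element of mitotic genes, was in 19.6% and 19.2%. A match is a description of the letters and does not show binding.

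The stretches around the E2F letters of 7 called members are printed to show where the letters sit. Capitals mark the letters, on either strand. For Cdc6, Uhrf1, Mcm7 and Pola1 the start site of the window is not the gene's outermost one, so the stretch lies inside the annotated gene. The stretches run 5′ to 3′ in the direction of the gene, and each ends before the start site of its window. They lie at chr1:128359725-128359835 (Mcm6, minus strand), chr8:75109336-75109387 (Mcm5, plus strand), chr5:138172021-138172068 (Mcm7, minus strand), chr11:98907993-98908040 (Cdc6, plus strand), chrX:93632266-93632313 (Pola1, minus strand), chr1:191575545-191575572 (Dtl, minus strand) and chr17:56304108-56304155 (Uhrf1, plus strand).
Mcm6: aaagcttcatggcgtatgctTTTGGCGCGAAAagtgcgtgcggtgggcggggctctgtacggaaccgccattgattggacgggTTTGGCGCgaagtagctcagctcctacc
Mcm5: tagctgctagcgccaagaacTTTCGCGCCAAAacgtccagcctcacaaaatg
Mcm7: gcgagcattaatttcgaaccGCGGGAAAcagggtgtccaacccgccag
Cdc6: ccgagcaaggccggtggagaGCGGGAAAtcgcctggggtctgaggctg
Pola1: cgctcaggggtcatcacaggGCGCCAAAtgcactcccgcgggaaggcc
Dtl: atcagaaagcgtgacgtcagTTTGGCGC
Uhrf1: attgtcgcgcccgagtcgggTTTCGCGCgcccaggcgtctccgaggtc

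In Mcm6 the letters begin 110, 106 and 47 bases before the start, the first 2 matches overlapping on opposite strands. In Mcm5 an overlapping pair begins 153 and 149 bases before it. The single match of Dtl begins 8 bases before its start, closer than in the others printed. Mcm3 also held the letters, but no match lay wholly before its start site. The 16 measured members with E2F letters had a median log2 difference of -0.35 between all treated arrays and Control, and 8 of them were called. The 25 measured members whose promoters lacked the letters had a median of -0.17, and 4 of them were called. For CCAAT the medians were -0.28 with the letters (10 of 26 called) and -0.17 without (2 of 15). For the GC box the order was the other way, -0.22 with (7 of 30) and -0.33 without (5 of 11), and for CHR they were -0.24 (2 of 9) and -0.22 (10 of 32). No difference between these sets was tested. Members without the E2F the letters included Prim1, Mcm10 and Rrm1, which were called, and members with them included Lig1 (-0.08 ± 0.09, SE) and Orc1 (-0.10 ± 0.06), which were not.

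Licensing had the lowest median of the roles. Counts by role, here and below, are for all treated arrays against Control, where 48.5% of all genes were lower and 0.888% were called. All 12 members of the licensing role were lower in the treated arrays, 6 of them passed the test, and their median log2 difference was -0.39. The 6 genes of the MCM ring, Mcm2 to Mcm7, had a median of -0.59, and 5 of the 6 passed. Differences within the ring ran from -0.87 in Mcm5 to -0.28 in Mcm4.

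Mcm5, a ring subunit, had log2 signals of 6.39, 6.31 and 5.58 in Control, 5.37, 5.35 and 5.11 in TMZ, 5.24, 5.35 and 5.09 in Anti-PD-1 and 5.42, 5.19 and 4.86 in Combination. Its 9 treated arrays lay below all 3 Control arrays, although Control replicate 3 was much nearer to them than the other Control arrays were. The difference was -0.87 ± 0.16, a 1.83-fold lower signal (adjusted p = 0.033). Mcm6 gave 6.36, 6.27 and 5.76 in Control, 5.42, 5.44 and 5.59 in TMZ, 5.62, 5.35 and 5.47 in Anti-PD-1 and 5.53, 5.58 and 5.33 in Combination. Here too the groups did not overlap and Control replicate 3 was the lowest Control array. Mcm6 fell by 0.65 in log2 units (SE 0.11, adjusted p = 0.0297), and its difference was -0.65 in each of the 3 treatments taken alone.

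Mcm3 was at 5.54, 5.64 and 5.06 in Control, 4.89, 4.64 and 4.82 in TMZ, 4.89, 4.40 and 4.57 in Anti-PD-1 and 4.90, 4.86 and 4.98 in Combination. The lowest treated arrays were Anti-PD-1 replicates 2 and 3, and none reached Control. The difference was -0.64 ± 0.12 (adjusted p = 0.0386). Of the 39 members above a log2 signal of 5 in at least 3 arrays, Mcm3 alone reached this only in Control arrays. Mcm7 was at 5.87, 6.18 and 5.63 in Control, 5.45, 5.21 and 5.33 in TMZ, 5.46, 5.41 and 5.33 in Anti-PD-1 and 5.23, 5.53 and 5.33 in Combination. Its groups did not overlap, Combination replicate 2 coming closest to Control. The difference of Mcm7 was -0.53 ± 0.10 (adjusted p = 0.0397).

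Mcm4 had the smallest difference of the ring. Its signals were 6.20, 6.25 and 6.03 in Control, 6.00, 5.97 and 5.88 in TMZ, 5.86, 5.85 and 5.76 in Anti-PD-1 and 5.85, 5.92 and 5.82 in Combination, so TMZ replicate 1 lay just under Control replicate 3. The difference was -0.28 ± 0.06 (adjusted p = 0.0458). Mcm2, the sixth subunit, had 6.09, 6.16 and 5.49 in Control and a treated range from 5.17 to 5.56 with a median of 5.43. Control replicate 3 lay inside that range, and Mcm2 missed the threshold at -0.54 ± 0.12 (adjusted p = 0.0658). Without Control replicate 3 its difference was -0.75 (adjusted p = 0.00144).

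Cdc6, the ATPase that brings the ring to the origin, had the most even Control signals of the called licensing genes. They were 4.69, 4.62 and 4.76, against 4.42, 4.25 and 4.21 in TMZ, 4.41, 4.17 and 4.27 in Anti-PD-1 and 4.12, 4.18 and 4.23 in Combination. Control replicate 3 was the highest of all 12 arrays for this gene, opposite to its place in the ring genes. Cdc6 fell by 0.44 (SE 0.06, adjusted p = 0.0183), a 1.36-fold lower signal. The other loader, Cdt1, differed by -0.17 ± 0.08 and its groups overlapped (adjusted p = 0.369). Gmnn, the inhibitor of CDT1, differed by -0.35 ± 0.09 with all treated arrays below Control but missed the threshold (adjusted p = 0.106). The origin recognition subunits Orc1, Orc2 and Orc6 gave -0.10 ± 0.06, -0.02 ± 0.05 and -0.10 ± 0.05, each with overlapping groups.

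Helicase activation and origin firing had 2 called members of 8, and all 8 differences were at or below 0, with a median of -0.27. Mcm10, which helps to activate the loaded helicase, had 6.01, 5.79 and 5.71 in Control, 5.44, 5.36 and 5.29 in TMZ, 5.26, 5.47 and 5.27 in Anti-PD-1 and 5.35, 5.37 and 5.14 in Combination. Every Control array lay above every treated array. Mcm10 fell by 0.51 (SE 0.08, adjusted p = 0.019). Dbf4, the regulatory subunit of the kinase that fires origins, had 4.75, 4.54 and 4.52 in Control, 4.30, 4.10 and 4.01 in TMZ, 4.11, 4.0 and 4.26 in Anti-PD-1 and 4.30, 4.23 and 4.10 in Combination, again without overlap. Dbf4 fell by 0.45 (SE 0.08, adjusted p = 0.0323). Its catalytic partner Cdc7 showed no such shift: Control was 6.35, 6.08 and 6.20, the treated arrays ran from 5.99 to 6.35, and the 95% interval of the difference was -0.16 to 0.15. Of the GINS genes, Gins2 differed by -0.24 ± 0.06 with no overlap (adjusted p = 0.0803) and Gins1 by -0.30 ± 0.10. Gins3 was at -0.23 ± 0.11 and Gins4 at -0.08 ± 0.07. Cdc45, the GINS partner on the active helicase, was at -0.29 ± 0.09 (adjusted p = 0.153).

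Mcm8, a helicase outside the MCM ring that acts mainly in recombination, had 5.77, 5.53 and 5.43 in Control, 5.48, 5.44 and 5.45 in TMZ, 5.38, 5.42 and 5.29 in Anti-PD-1 and 5.30, 5.42 and 5.36 in Combination. Control replicate 3 lay just under the 3 TMZ arrays, and the difference of -0.18 ± 0.07 missed the threshold (adjusted p = 0.225).

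**Figure D2:**
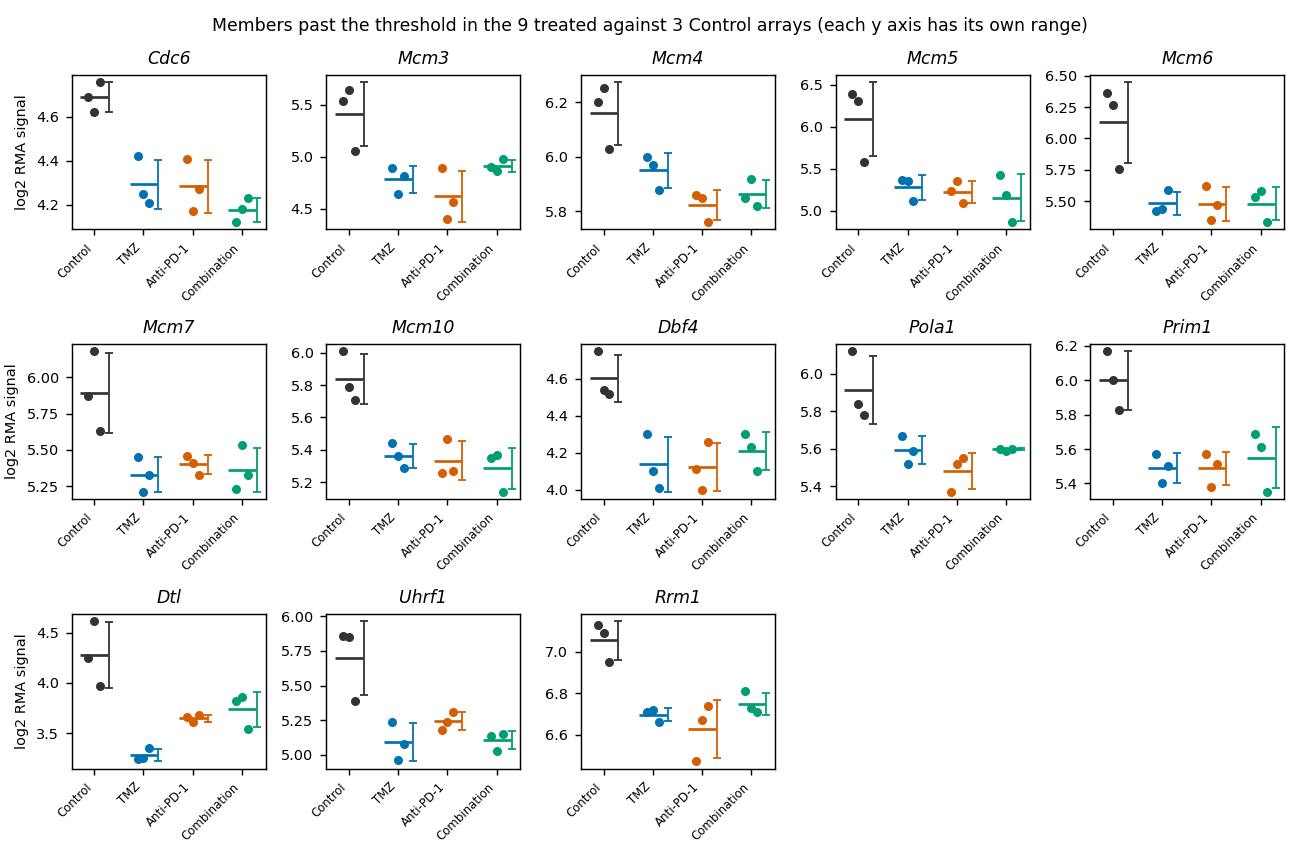
Log2 RMA signal in each array for the 13 members that passed the threshold between all treated arrays and Control; points are arrays, horizontal lines group means and bars the standard deviation (n = 3). In each of the 13 panels every treated array is below every Control array, and in Dtl the TMZ arrays are below those of both other treated groups.

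All 6 polymerase and primase genes were lower, with a median of -0.35, and 2 passed. Prim1, the catalytic primase subunit that makes the RNA primer, was at 6.17, 6.00 and 5.83 in Control, 5.57, 5.40 and 5.50 in TMZ, 5.57, 5.38 and 5.51 in Anti-PD-1 and 5.69, 5.61 and 5.35 in Combination. No treated array reached Control. Prim1 fell by 0.49 (SE 0.09, adjusted p = 0.0297). Pola1, the catalytic subunit of polymerase alpha, was at 6.12, 5.84 and 5.78 in Control, 5.67, 5.52 and 5.59 in TMZ, 5.37, 5.52 and 5.55 in Anti-PD-1 and 5.60, 5.59 and 5.60 in Combination. Control replicate 1 was set apart from the other Control arrays here, and the 3 Combination arrays were nearly identical. Pola1 fell by 0.36 (SE 0.07, adjusted p = 0.0464). Of their partner subunits, Prim2 differed by -0.13 ± 0.07 and Pola2 by -0.31 ± 0.09, and neither passed. The leading-strand polymerase Pole was at -0.54 ± 0.13 (adjusted p = 0.0752), with Anti-PD-1 replicate 2 inside the Control range. Its second, dimmer probe set differed by -0.10. The lagging-strand polymerase Pold1 was at -0.35 ± 0.10 (adjusted p = 0.122).

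The clamp, its loader, the single-strand binding proteins and the enzymes of Okazaki fragments had the median nearest to 0. Their 10 measured members had a median of -0.09, and 0 of the 10 passed, with 2 at an unadjusted p under 0.05, a share close to the 15.5% of all genes. Pcna, the sliding clamp, was at 8.23, 8.14 and 7.84 in Control, 7.83, 7.71 and 7.80 in TMZ, 7.77, 7.77 and 7.71 in Anti-PD-1 and 7.96, 7.92 and 7.68 in Combination. Combination replicates 1 and 2 lay above Control replicate 3, so the groups overlapped. The difference of Pcna was -0.27 ± 0.08 (adjusted p = 0.146). Rfc2, a clamp loader subunit, had 6.95, 6.88 and 6.89 in Control, 6.86, 6.81 and 6.87 in TMZ, 6.61, 6.73 and 6.81 in Anti-PD-1 and 6.97, 7.05 and 6.90 in Combination. Its Combination arrays were all above its Anti-PD-1 arrays, and its overall difference from Control was -0.06 ± 0.05. Rfc3 differed by -0.24 ± 0.08 and was the other member with an unadjusted p under 0.05. The remaining loader subunits Rfc1 and Rfc5 differed by -0.10 ± 0.07 and -0.08 ± 0.08. The 3 subunits of replication protein A, which coats single-stranded DNA, were at -0.08 ± 0.06, -0.14 ± 0.07 and 0.02 ± 0.07 for Rpa1, Rpa2 and Rpa3. Fen1, the flap endonuclease, was at -0.17 ± 0.09 and Lig1, the ligase that seals Okazaki fragments, at -0.08 ± 0.09. The second Fen1 probe set, at a mean of 4.78 in Control, differed by -0.04.

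Among the 4 genes of fork protection and control, Dtl had the largest difference. DTL is the adaptor through which a ubiquitin ligase destroys CDT1 during S phase. Dtl signals were 4.25, 4.62 and 3.97 in Control, 3.24, 3.25 and 3.35 in TMZ, 3.66, 3.61 and 3.68 in Anti-PD-1 and 3.82, 3.86 and 3.54 in Combination. The TMZ arrays were the lowest of all, every Anti-PD-1 and Combination array lay between them and Control, and no treated array reached Control. Dtl fell by 0.72 (SE 0.11, adjusted p = 0.019), a 1.65-fold lower signal. Tipin, which with TIMELESS steadies the fork, was at 6.08, 6.09 and 6.06 in Control, 5.89, 5.68 and 5.86 in TMZ, 5.81, 5.89 and 6.04 in Anti-PD-1 and 5.80, 5.81 and 5.66 in Combination. Its Control arrays were nearly equal, Anti-PD-1 replicate 3 came closest to them, and the groups did not overlap. The difference of Tipin was -0.25 ± 0.06 and missed the threshold (adjusted p = 0.0956). Timeless was at -0.33 ± 0.09 (adjusted p = 0.101) and Wdhd1, a fork scaffold protein, at -0.05 ± 0.08.

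Of the 4 genes that copy chromatin and DNA methylation, Uhrf1 passed. UHRF1 brings the maintenance methyltransferase DNMT1 to newly copied DNA. Uhrf1 was at 5.86, 5.85 and 5.39 in Control, 5.24, 4.96 and 5.08 in TMZ, 5.18, 5.24 and 5.31 in Anti-PD-1 and 5.14, 5.03 and 5.15 in Combination, with Control replicate 3 low but still above every treated array. Uhrf1 fell by 0.55 (SE 0.10, adjusted p = 0.0296). Dnmt1 had tight groups: 7.85, 7.88 and 7.86 in Control, 7.67, 7.61 and 7.67 in TMZ, 7.62, 7.72 and 7.64 in Anti-PD-1 and 7.67, 7.71 and 7.71 in Combination. All its treated arrays were below all Control arrays, but the difference was small at -0.20 ± 0.04 and missed the threshold (adjusted p = 0.0611). The histone chaperone subunits differed in sign, Chaf1a at 0.06 ± 0.05 and Chaf1b at -0.25 ± 0.08, and neither passed.

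In nucleotide supply, 1 of 5 members passed and the median was -0.19. Rrm1, the large subunit of ribonucleotide reductase, was at 7.13, 7.09 and 6.95 in Control, 6.71, 6.72 and 6.66 in TMZ, 6.47, 6.67 and 6.74 in Anti-PD-1 and 6.81, 6.73 and 6.71 in Combination. The Control arrays were all above the treated ones. Rrm1 fell by 0.36 (SE 0.06, adjusted p = 0.0296). Rrm2, the small subunit whose abundance follows S phase, varied far more within groups: 5.11, 5.50 and 4.90 in Control, 4.94, 4.47 and 4.98 in TMZ, 4.97, 4.61 and 4.64 in Anti-PD-1 and 4.97, 4.41 and 4.73 in Combination. Treated arrays in all 3 groups lay above Control replicate 3. Its difference was -0.42 ± 0.15 and did not pass (adjusted p = 0.214). The second Rrm2 probe set, at a dim mean of 2.38 in Control, differed by 0.06. Tyms, which makes thymidylate, differed by -0.17 ± 0.10, the salvage kinase Tk1 by -0.19 ± 0.08 and the dUTP hydrolase Dut by -0.05 ± 0.05.

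**Figure D3:**
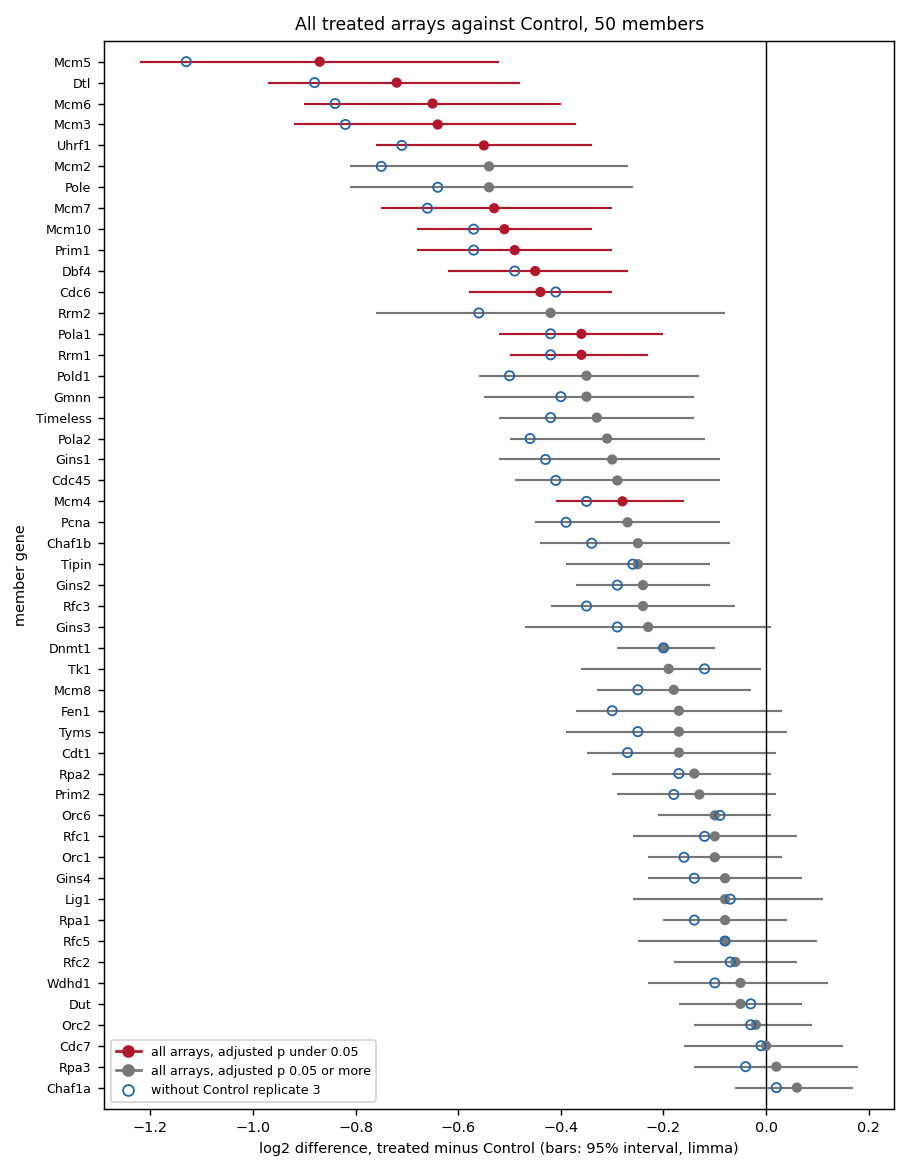
Log2 difference between the mean of the 3 treated groups and Control for the 50 members, ordered by size; filled points are the fit on all arrays with its 95% interval (red: adjusted p under 0.05), open points the same difference without Control replicate 3. The differences run from -0.87 in Mcm5 to 0.06 in Chaf1a, and most open points lie further from 0.

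The 3 treatments were each set against the same 3 Control arrays, so their differences share the Control values and are given side by side. The members' median was -0.24 in TMZ, -0.25 in Anti-PD-1 and -0.27 in Combination. Lower than Control were 49, 46 and 44 of the 50 members, where 47.9%, 47.6% and 49.8% of all genes were lower, and 43 members were lower in all 3. All arrays of a group lay below all Control arrays in 27 members with TMZ (6.81% of all genes), 23 with Anti-PD-1 (8.33%) and 24 with Combination (7.82%).

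Few members passed in a single treatment. In TMZ against Control the called member was Dtl at -1.0 ± 0.14 (adjusted p = 0.0402; 0.0992% of all genes were called). In Anti-PD-1 it was Rrm1 at -0.43 ± 0.08 (adjusted p just under the threshold, 0.05 when rounded; 0.293% of all genes were called). Leaving out any single array but Control replicate 3 ended both calls, with Dtl then between -1.15 and -0.83 and Rrm1 between -0.49 and -0.35 over the 12 fits. In Combination 0 of the 50 passed in the limma fit, as did 0% of all genes. At an unadjusted p under 0.05 there were 29 members in Combination, all lower, against 11.6% of all genes. The Combination member nearest to the threshold was Cdc6 at -0.51 ± 0.08 (adjusted p = 0.0781). Without Control replicate 3, the called members numbered 11 in TMZ (1.64% of all genes), 18 in Anti-PD-1 (3.09%) and 13 in Combination (1.27%).

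The combined treatment was not told apart from either agent alone for these genes. Against TMZ, 0 of the 50 members passed and 0% of all genes did. The same counts, 0 of 50 and 0%, held against Anti-PD-1 and between the single agents. At an unadjusted p under 0.05 there was 1 member against TMZ (4.19% of all genes), 2 against Anti-PD-1 (4.91%) and 2 between TMZ and Anti-PD-1 (4.51%), shares close to those of all genes. The median member difference was 0.01 against TMZ, 0.00 against Anti-PD-1 and 0.01 between the single agents. In 12 members the Combination mean lay between the single-agent means, in 17 it was the lowest of the 3 and in 21 the highest, which is 24%, 34% and 42% of members beside 33.5%, 35% and 31.5% of all genes.

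The intervals show how much could be missed. For Mcm5 the 95% interval of Combination minus TMZ was -0.55 to 0.31, and that of Combination minus Anti-PD-1 was -0.50 to 0.36. For Mcm6 they were -0.31 to 0.30 and -0.30 to 0.31. Intervals of the tighter Cdc6 were -0.29 to 0.06 and -0.28 to 0.07. Dtl was the member with an unadjusted p under 0.05 against TMZ, higher in Combination by 0.46 ± 0.14 with an interval of 0.16 to 0.76 (adjusted p = 1.0). Rfc2 was higher in Combination than in Anti-PD-1 by 0.25 ± 0.07 (adjusted p = 1.0), and Wdhd1 lower, at -0.23 ± 0.10 (adjusted p = 1.0). Between the single agents, Dtl was lower in TMZ than in Anti-PD-1 at -0.37 ± 0.14 (adjusted p = 1.0) and Prim2 higher in TMZ at 0.22 ± 0.09 (adjusted p = 1.0).

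**Figure D4:**
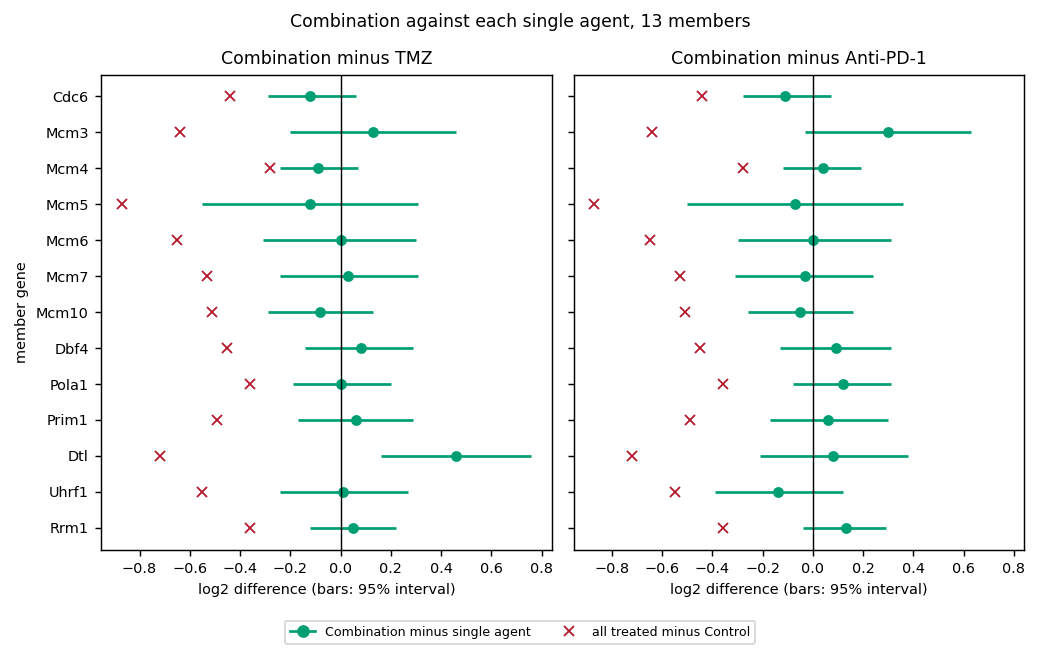
Log2 difference of Combination from TMZ (left) and from Anti-PD-1 (right) with its 95% interval for the 13 members called between all treated arrays and Control; crosses mark the difference of all treated arrays from Control. All intervals cover 0 except that of Dtl against TMZ (0.16 to 0.76).

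The interaction asks whether the effect of adding the antibody to TMZ differed from its effect in Control mice. It was below 0 in 3 of the 50 members and at or above 0 in the rest, with a median of 0.24 beside -0.02 over all genes. In the limma fit 0 of the 50 passed, and 0.00451% of all genes did, while 22 members had an unadjusted p under 0.05, all positive, against 8.92% of all genes. Dtl had the largest value, 1.08 ± 0.19 (adjusted p = 0.142), followed by Mcm3 at 0.93 ± 0.21 (adjusted p = 0.229). A positive value means that Combination minus TMZ was higher than Anti-PD-1 minus Control, so high Control signals enter it directly. Without Control replicate 3, 6 members passed (Dtl, Mcm2, Mcm3, Mcm5, Mcm6 and Uhrf1), against 0.893% of all genes. The F test over the 4 groups called 0 members (0.00451% of all genes), the smallest adjusted p being 0.115 for Dtl. It gave 26 members an unadjusted p under 0.05, against 10.1% of all genes.

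Other genes of the pathway, listed apart from the members, had a median nearer to 0. Of 67 listed, 63 were measured, 49 were lower in the treated arrays (48.5% of all genes) and the median was -0.08. In that comparison 3 of the 63 passed, all lower, where 0.888% of all genes were called. Top2a, the topoisomerase that untangles replicated DNA, had 6.56, 6.78 and 5.63 in Control and 4.29 to 5.29 in the treated arrays, without overlap. It fell by 1.58 (SE 0.22, adjusted p = 0.0157), a 2.99-fold lower signal. Top2a passed in Anti-PD-1 alone as well, at -1.86 ± 0.27 (adjusted p = 0.0326), where 0.293% of all genes were called. Ticrr, which works with TOPBP1 in origin firing, had 4.47, 4.90 and 4.22 in Control and 3.84 to 4.02 in the treated arrays. Ticrr fell by 0.57 (SE 0.11, adjusted p = 0.0359). Mthfd2, a mitochondrial folate enzyme that feeds nucleotide synthesis, fell by 0.47 (SE 0.08, adjusted p = 0.0296). With TMZ 0 of the 63 passed and with Combination 0 of the 63 in the limma fit, while 15 in each had an unadjusted p under 0.05, against 11.3% and 11.6% of all genes. With Anti-PD-1 there were 20 of 63 at an unadjusted p under 0.05, of which 1 was higher, against 13.5% of all genes.

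Of the regulators in that list, the 8 E2F genes, Tfdp1, Rb1, Rbl1, Rbl2, Ccne1 and Cdk2, none was among the 3 that passed. E2f1, the founding E2F transcription factor, was at 5.72, 6.06 and 5.87 in Control and differed by -0.03 ± 0.08, with a 95% interval of -0.21 to 0.15. Ccne1, the cyclin that drives entry into S phase, was at 6.67, 6.67 and 6.63 in Control and differed by -0.03 ± 0.06, with an interval of -0.16 to 0.09. Others were lower but missed the threshold and are named after their values were seen. Cdk2, the kinase partner of cyclin E, was at -0.43 ± 0.09 without overlap (adjusted p = 0.0515). Rbl1, a relative of the retinoblastoma protein, was at -0.57 ± 0.15 (adjusted p = 0.101) and the repressor E2f8 at -0.40 ± 0.13 (adjusted p = 0.161). Pole2, the partner subunit of Pole, was at -0.54 ± 0.13 (adjusted p = 0.0795), with its groups not overlapping. Rrm2b, the p53-induced small subunit of ribonucleotide reductase, was at 0.08 ± 0.05, and Cdkn1a, the p53-induced inhibitor of cyclin-dependent kinases, at -0.38 ± 0.10 (adjusted p = 0.0982). Neither passed. Samhd1, which degrades nucleotides, was at -0.27 ± 0.13 (adjusted p = 0.342).

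Markers of cycling cells were lower beside the members, and those of other cells varied. Mki67, the proliferation marker, was at 6.84, 6.77 and 6.04 in Control and fell by 1.09 (SE 0.16, adjusted p = 0.0183). Marker counts here are for all treated arrays against Control, where 48.5% of all genes were lower, 0.888% were called and 15.5% had an unadjusted p under 0.05. Of the mitosis markers 17 of 17 measured were lower and 14 passed, with a median of -0.79 beside -0.25 for the replication genes. Their score by array was 0.74, 0.88 and 0.25 in Control and -0.35 to -0.07 in the treated arrays, with Control replicate 3 again the lowest of its group. Neuron markers, 12 of 12 measured, had mean signals of 10.00 to 10.10 in Control and 10.06 to 10.16 in the treated arrays, so neuron transcripts were present in every array. As deviations from the gene means they were -0.07, -0.10 and 0.01 in Control and -0.03 to 0.07 in the treated arrays, with Control replicate 3 the highest of its group. With this neuron score as a covariate, 0 members passed in any comparison with Control, and 0 of all genes did. In that fit the member median of all treated arrays against Control was -0.16, with 45 of 50 still lower. There were 17 members at an unadjusted p under 0.05, against 1411 of the 22180 genes. The largest remaining differences were Mcm5 at -0.59 and Dtl at -0.54. The 9 markers of glioma and neural progenitors had a median of -0.23, with 3 passing. Microglia markers were lower in 7 of 7 (1 passed, median -0.10) and those of blood-derived macrophages and monocytes in 8 of 8 (1 passed, median -0.10). The macrophage score was 0.22, 0.35 and -0.07 in Control and -0.18 to 0.12 in the treated arrays. Markers of T and NK cells had a median of -0.12 and of endothelium 0.21, with 0 passing in the limma fit in either and 3 at an unadjusted p under 0.05 in each, lower and higher respectively. Medians of oligodendrocyte and astrocyte markers were -0.05 and -0.01, with 0 passing in either and 0 and 4 at an unadjusted p under 0.05. TMZ replicate 2 stood apart in endothelial markers, with a score of 0.52 against -0.20 to 0.08 in the other 11 arrays. Without it 3 members passed between all treated arrays and Control (Cdc6, Dtl and Mcm10), as did 58 of all genes. The same 3 passed without TMZ replicate 3 and without Combination replicate 2, with 59 of all genes called each time. The part of other cells in the differences was not tested.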

How the data were processed

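Total RNA of GL261 tumours was hybridised to 12 Affymetrix whole-transcript arrays. Per the submitters' processing notes, the authors processed them with RMA in the Affymetrix Expression Console, versions not given in the sources used here. RMA subtracts background, gives all arrays 1 distribution of values and combines the probes of each set, so a shift common to all genes would be removed. The deposited values are log2 signals of 41345 probe sets, from 1.24 to 13.14; array medians were 5.06 to 5.12. Arrays give no read depth.

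Array annotation gave 1 symbol to 23521 probe sets, several to 1814 and none to 16010. The brightest probe set per gene was kept (22180 genes), with no filter on brightness; other filters, scalings and fits were alternatives. Limma 3.58.1 in R 4.3.3 was fitted to all 12 arrays with a mean per group (8 residual degrees of freedom) and checked on simulated data. Two-sided p values were adjusted by Benjamini-Hochberg across the 22180 genes; calls needed an adjusted p under 0.05. Replicate numbers were not treated as pairs: same-numbered arrays of different groups correlated from -0.162 to 0.156 in their deviations from group means.

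Values in every array were given for members past the threshold in any contrast and the 2 with the smallest F test p per role. Of the pathway list, those past the threshold were named, and always E2f1, Ccne1, Pole2, Rrm2b and Samhd1. Some genes of that rule had no single-symbol probe set and were not used here. Mki67 and Cdkn1a were added. Members, lists and tests were chosen with earlier results of these data known. Promoters were RefSeq's (GRCm38.p6), used without regard to the array's build, which is not given in the sources used here.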

Additional observations from a re-analysis of the deposited data

How the results depend on the processing

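For the named members, 375 pairs of a member's comparison with Control and an alternative fit were examined, and 0 reversed direction. The comparisons were all treated arrays against Control for each named member, and TMZ against Control for Dtl. Rrm1 in Anti-PD-1 was not among them, so the loss of that call is not in these counts. In 138 pairs a call was lost, in 3 a call was gained, and 234 stayed on their side of the threshold. The 234 include members that were not called in the main fit and stayed so, and are therefore not a count of kept calls. The direction was kept in all of these pairs, but not in every member outside them. With the neuron score as a covariate, Cdt1 in Anti-PD-1 went from -0.13 to 0.07. Orc2 in all treated arrays went from -0.02 to 0.01. In that fit 45 of the 50 members were lower in all treated arrays, against 48 in the main fit. The number of members called was less stable than the direction. A variance trend raised it to 4 in TMZ, 10 in Anti-PD-1 and 2 in Combination, while calls among all genes rose from 22, 65 and 0 to 113, 381 and 42. Leaving out dim genes kept 39 of the 50 members. Dtl, the TMZ call of the main fit, was too dim to be kept and was not retested. The filtered fit gave 0 called members in TMZ, 7 in Anti-PD-1 and 13 in all treated arrays against Control. Of the 14146 genes kept, 17, 154 and 361 were called. The 7 and the 13 both included Mcm3, which passed the brightness filter only through Control arrays, so its place in those counts is no support. Testing all 41345 probe sets gave 0 in TMZ, 0 in Anti-PD-1 and 0 in all treated arrays against Control, where 1, 2 and 40 of all probe sets were called. Fitting only the groups compared gave 0 in TMZ and 0 in Anti-PD-1, with 0 of all genes called in each. Centring arrays on their median gave 0 in Anti-PD-1, where 43 of all genes were called. With the neuron score as a covariate the count was 0 in TMZ, 0 in Anti-PD-1 and 0 in all treated arrays, and 0 of all genes were called in each. The member median then moved to -0.15 in Anti-PD-1, -0.20 in Combination, -0.16 in all treated arrays and 0.13 in the interaction. The replicate block used numbers that do not pair the arrays (4 of 12 arrays were closest to an array of their own number). It gave 0 called members in TMZ, 1 in Anti-PD-1 (Mcm5, while Rrm1 was lost), 0 in Combination and 10 in all treated arrays. Among all genes it called 4, 20, 0 and 161 in these comparisons.

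Leaving out 1 array at a time gave 0 to 11 called members in TMZ, 0 to 18 in Anti-PD-1, 0 to 13 in Combination, 0 to 23 in all treated arrays and 0 to 6 in the interaction. Calls among all genes ran from 0 to 363, 1 to 686, 0 to 282, 1 to 838 and 0 to 198 in the same order. The upper end was always the fit without Control replicate 3. The member median then ranged from -0.35 to -0.18 in TMZ, -0.34 to -0.22 in Combination and -0.32 to -0.21 in all treated arrays. The cause of these changes was not tested. A member that was not called is not shown to be unchanged.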
